A study of Mus musculus with 16 samples.

Results

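The data were the transcriptomes of lung endothelial cells from mice that had lost Fgfr1 in the endothelium and from mice that had kept it, all given lipopolysaccharide (LPS). They comprised 6 of the 16 libraries of the series, 3 libraries of each genotype. The first group were VE-cadherin-CreERT2 Fgfr1 loxP/loxP mice, named Fgfr1 iΔEC/iΔEC, in which the VE-cadherin promoter drives a Cre enzyme that acts only after tamoxifen. Their controls were Fgfr1 loxP/loxP littermates, and both groups received tamoxifen and an intratracheal dose of 2 mg/kg LPS 24 h before the lungs were taken. The Fgfr1 iΔEC/iΔEC mice were adults, and their age in weeks and whether the controls carried Cre were not given in the sources used here, nor was the number of animals behind a library. Endothelial cells were taken as the CD31-positive, CD45-negative fraction on magnetic beads. The other 10 libraries, from wild-type mice given saline (4) or 10 mg/kg LPS (6), served here only to define a pair of gene lists. Members were the 14944 of 54532 annotated genes that averaged 0.5 FPKM or more over the 6 libraries (FPKM, fragments per kilobase of gene length scaled to library size, a level that can be compared between genes). Each Fgfr1 iΔEC/iΔEC library was compared with the loxP/loxP library of the same replicate number, which gave 3 pairs, and the genes and pathways that moved the same way in all of them were described. Between 15969575 and 17002788 reads fell on genes in each library.

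FGFR1 is a receptor tyrosine kinase. When it binds a fibroblast growth factor (FGF), it phosphorylates the adaptor FRS2 and switches on the RAS-ERK and PI3K-AKT cascades, and ERK in turn induces inhibitors such as the Sprouty proteins that damp the same cascade. In the endothelium FGF signaling is known for maintaining VE-cadherin junctions and the barrier. The kinases ROCK1 and ROCK2 act on the same barrier from the cytoskeleton, since they drive myosin contraction that pulls junctions apart.

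Fgfr1 (chr8:25513654-25575718, GRCm38, plus strand) was lower in every library from Fgfr1 iΔEC/iΔEC mice. Its level was 2.90, 2.91 and 2.59 FPKM in loxP/loxP libraries 1 to 3 and 0.683, 1.41 and 1.15 FPKM in Fgfr1 iΔEC/iΔEC libraries 1 to 3. The groups did not overlap, and the second group kept 23.5, 48.4 and 44.4% of the paired control level. On the log2(FPKM + 1) scale, on which every difference below is given, the mean difference was -0.88 ± 0.15 (SE from limma, 3 pairs). That SE draws part of its spread from the other genes and is not that of the 3 pair differences alone. It was not called over all genes by limma with the replicate block and Benjamini-Hochberg adjustment (adjusted p = 0.527, 0.194 to 0.962 over the alternative settings), and an exact permutation test of 3 against 3 libraries gave its smallest possible two-sided p, 0.1. That test ignores the pairing, and an exact sign permutation over the 3 pairs gave p = 0.25, again the smallest it allows. The deleted exons cannot be seen in a value for the whole gene. Rock2 (chr12:16894895-16987823), the kinase that the study followed, was at 15.6, 13 and 13.5 FPKM in loxP/loxP libraries and 19.1, 17.8 and 18.8 FPKM in Fgfr1 iΔEC/iΔEC libraries. All 3 values of the second group lay above those of the first, with pair differences of 0.27, 0.43 and 0.44 (adjusted p = 0.58, 0.372 to 1 over the alternatives, exact permutation p = 0.1 unpaired and 0.25 over the pairs). When the libraries were scaled on the 10 endothelial markers described below, the mean difference of Rock2 was 0.15 in place of 0.38, with a smallest pair difference of 0.030.

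**Figure D1:**
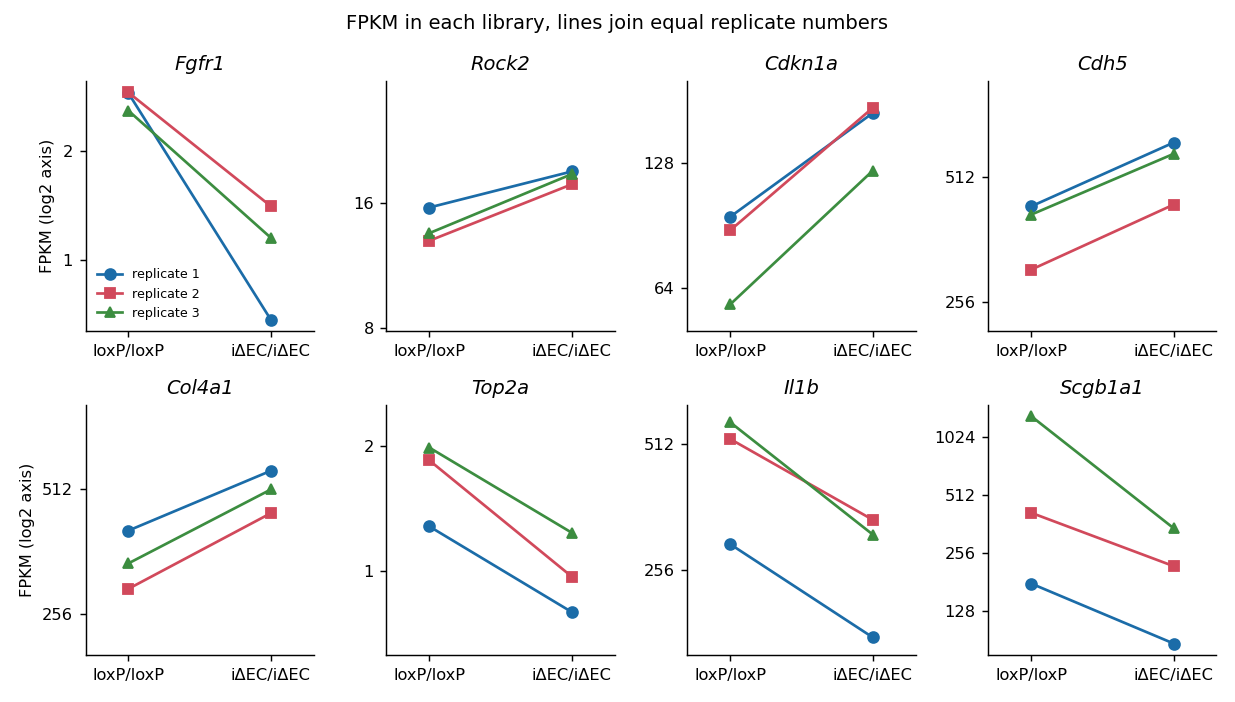
Levels of 8 genes in each of the 6 libraries, in FPKM on log2 axes, with lines joining libraries of equal replicate number. Fgfr1, Top2a, Il1b and Scgb1a1 were lower and Rock2, Cdkn1a, Cdh5 and Col4a1 higher in Fgfr1 iΔEC/iΔEC in each pair, and the replicate 3 control held the highest Scgb1a1, 1310.0 FPKM.

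Endothelial identity was checked against marker lists. All 10 endothelial markers were detected in every library. Their summed level was 3086, 2468 and 2573 FPKM in loxP/loxP libraries and 3885, 2747 and 3553 FPKM in Fgfr1 iΔEC/iΔEC libraries, and Cldn5 was the most abundant. The control of each pair held the smaller sum. Transcripts of other cell types were present despite the CD45 depletion. The 12 epithelial markers summed to 1053, 1842 and 3089.7 FPKM in controls and 530.2, 1241 and 962 FPKM in Fgfr1 iΔEC/iΔEC, with Sftpc, which encodes surfactant protein C, the most abundant. For the 8 neutrophil markers, led by S100a9, the sums were 1157, 2535 and 2566 FPKM and 744, 2422 and 1522 FPKM. Both sums were lower in Fgfr1 iΔEC/iΔEC in all 3 pairs. Of the 4 mesothelial markers, 1 was at 0 and all were under 0.5 FPKM on average. In such bulk libraries, fewer cells of a type and less RNA per cell cannot be told apart. All 6 libraries expressed the Y-linked gene Ddx3y (19.9 to 24.0 FPKM), and Xist, which is expressed from the inactive X chromosome of females, had at most 4 reads in any of them.

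By marker list, 8 of 12 epithelial genes were lower in all 3 pairs and none higher, with a median difference of -0.70 (-1.03, -0.46 and -0.85 by pair). Among neutrophil genes 5 of 8 were lower and none higher (median -0.48, by pair -0.52, -0.073 and -0.80), and among T and NK cell genes 4 of 6 were lower and none higher (median -0.34, by pair -0.52, -0.079 and -0.32). The 6 genes common to leukocytes had 1 lower and none higher, and their median changed sign between pairs (-0.49, 0.18 and -0.41). So did those of B and plasma cells (2 of 6 lower, -0.99, 0.14 and -0.82), monocytes and macrophages (1 of 8 lower, -0.38, 0.30 and -0.31) and fibroblasts (1 of 7 lower, -0.72, 0.15 and -0.0062). Mural genes, of pericytes and smooth muscle, were lower in 4 of 8 cases and higher in 1, with medians of -0.21, -0.18 and -0.11. Endothelial genes went the other way, with 5 of 10 higher and none lower (median 0.23, by pair 0.27, 0.083 and 0.45). General capillary markers had 5 of 8 higher and 1 lower (0.46, 0.35 and 0.34), aerocyte markers 3 of 8 higher and none lower (0.16, 0.049 and 0.40) and venous markers 3 of 6 higher and none lower (0.29, 0.30 and 0.52). Arterial markers had none higher and 1 of 8 lower (-0.22, -0.50 and 0.18). Platelet markers were higher in 3 of 4 cases (0.74, 0.21 and 0.16). Lymphatic (1 of 5 higher) and erythroid (0 of 5) medians ran in both directions, at -0.85, 0.93 and 0.40 and 0.48, -1.09 and 1.55. Among all genes 17.8% were higher and 12.9% lower. When the libraries were scaled on the endothelial markers, after which 2.32% of all genes were higher and 42.3% lower, general capillary markers were 2 higher and 1 lower, aerocyte 0 higher and 2 lower, venous 0 higher and 0 lower, platelet 0 higher and 0 lower, arterial 0 higher and 5 lower and mural 0 higher and 5 lower. Epithelial markers were then 0 higher and 11 lower, neutrophil 0 higher and 5 lower and T and NK cell 0 higher and 4 lower. These marker levels moved with many of the genes described below, and their part in those results was not tested.

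**Figure D2:**
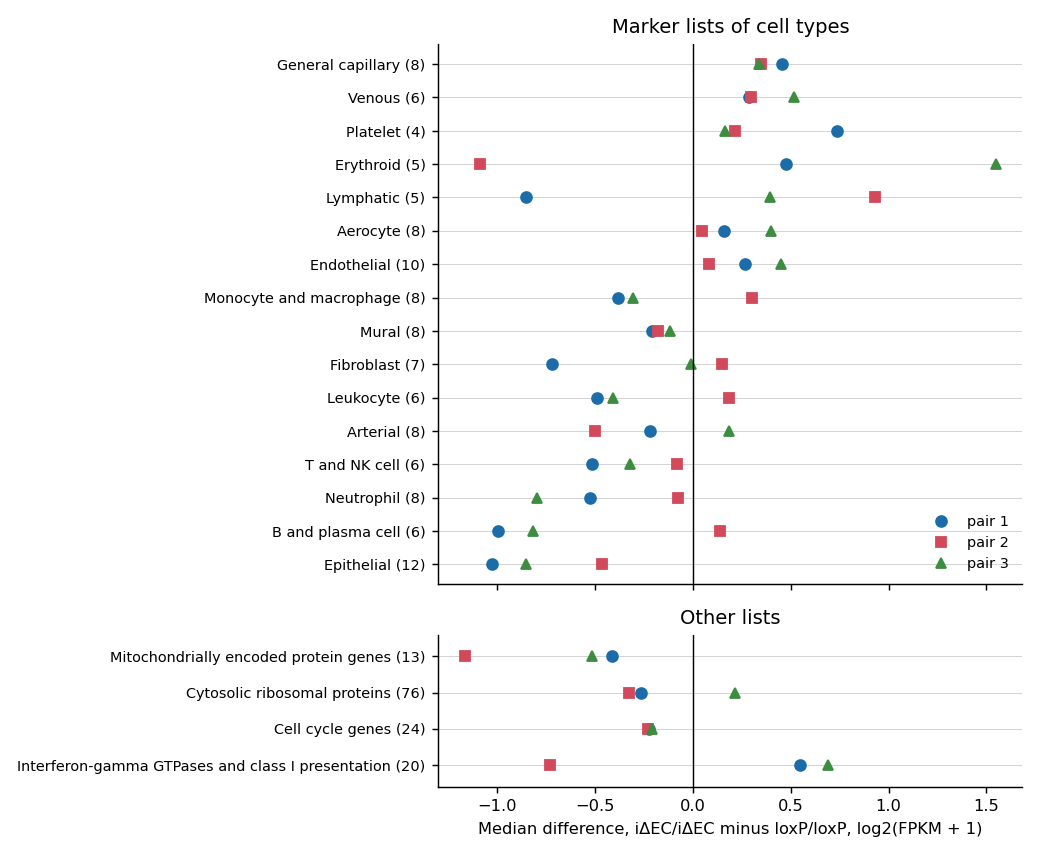
Median difference of the members of each marker list (upper panel) and of 4 other lists (lower panel) in each pair, Fgfr1 iΔEC/iΔEC minus loxP/loxP on the log2(FPKM + 1) scale, with the number of members tested in parentheses. Epithelial, neutrophil and T and NK cell medians were below 0 in all 3 pairs and general capillary, venous and endothelial medians above 0 (the endothelial median was -0.011 once libraries were scaled on that same list), while interferon-gamma genes were below 0 in pair 2 and above 0 in pairs 1 and 3.

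Across all genes no difference between the genotypes was called. Limma with the replicate block called 0 of 14944 genes (0%) at an adjusted p of at most 0.05, with a smallest adjusted p of 0.306, and limma-voom on the read numbers also called 0. An unadjusted p under 0.05 was reached by 1154 genes (7.72%), 552 higher and 602 lower in Fgfr1 iΔEC/iΔEC, against 1331 by limma-voom. The genes named below are therefore described by their values. In all 3 pairs, 2653 genes (17.8%) were higher and 1928 (12.9%) lower. A difference of at least 0.5 in each pair was held by 30 genes higher (0.201%) and 103 lower (0.689%). The groups did not overlap in either direction for 1509 genes (10.1%). The pairs shared little of their differences: across genes, which are not independent replicates, pair differences had a Pearson r of 0.13 between pairs 1 and 2, 0.19 between pairs 1 and 3 and -0.018 between pairs 2 and 3. Scaling the libraries on the 10 endothelial markers moved the median of all genes from 0.013 to -0.18, and then 347 genes (2.32%) were higher and 6322 (42.3%) lower in all pairs. Counts given below as endothelial-scaled are to be read against those shares.

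The 15 genes named as higher were the protein-coding genes with the largest smallest pair difference. Cdkn1a (chr17:29090976-29100727) led them. It encodes p21, an inhibitor of cyclin-dependent kinases that halts the cell cycle. Its level was 94.9, 88.1 and 58.4 FPKM in loxP/loxP libraries and 169, 174 and 123 FPKM in Fgfr1 iΔEC/iΔEC libraries, 1.78, 1.97 and 2.1 times the paired control. The groups did not overlap, and the mean difference was 0.95 ± 0.11 (SE from limma as above, 3 pairs, limma adjusted p = 0.389). Klf4, a transcription factor of quiescent endothelium induced by shear stress, was at 149, 133 and 207 FPKM in controls and 219.6, 231 and 312 FPKM in Fgfr1 iΔEC/iΔEC. Akap12, a scaffold for protein kinase A, went from 86.5, 84.6 and 59.0 FPKM to 126, 206 and 125 FPKM. Neither gene had overlapping groups. Bmp6, a bone morphogenetic protein, was at 82.7, 43.9 and 63.7 FPKM and 119, 65.2 and 113 FPKM, so it was higher in each pair although the groups overlapped.

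Col4a2, an alpha chain of basement membrane collagen IV, was at 306, 231 and 245 FPKM in controls and 434, 357 and 386 FPKM in Fgfr1 iΔEC/iΔEC, and its partner chain Col4a1, which came just after the 15 genes, at 406, 294 and 339 FPKM and 566, 448 and 511 FPKM. Every value of the second group exceeded every control for both chains. These genes lie head to head on chromosome 8 of GRCm38, with RefSeq start sites at 11312826 (Col4a1, minus strand) and 11312805 (Col4a2, plus strand), 21 bases apart, so that they share a promoter region. Ptgs1, the constitutive cyclooxygenase, was at 30.4, 22.0 and 22.8 FPKM and 45.8, 41.1 and 32.5 FPKM. Cyp4b1, a cytochrome P450, was at 171, 113 and 139 FPKM and 249, 179.8 and 236 FPKM. Both were higher in each pair with no overlap of the groups. Plpp1, a phospholipid phosphatase at the plasma membrane, was at 172, 115 and 138 FPKM and 242, 180.0 and 214 FPKM. Prss23, which encodes a serine protease, was at 107, 138 and 86.8 FPKM and 187, 216 and 165 FPKM. In each case the lowest Fgfr1 iΔEC/iΔEC value was above the highest control. The remaining named genes were the peptide transporter Slc15a2, the adhesion G protein-coupled receptor Adgrl3, Fam107a, the synaptotagmin Syt17, the kinase Tnik and Eno1b, with mean differences from 0.61 to 1.81. Eno1b is a near copy of the enolase gene Eno1, so reads may have been split between them and its value is uncertain. Its level was 4.99, 6.55 and 4.42 FPKM in controls and 26.8, 45.6 and 7.24 FPKM in Fgfr1 iΔEC/iΔEC, against 81.2, 107 and 73.0 FPKM and 54.9, 92.2 and 81.2 FPKM for Eno1, which was not higher in every pair. Adjusted p over the 15 genes ran from 0.389 to 0.58, and all 15 were higher in all pairs also when endothelial-scaled, though that scaling made the mean difference of 6 of them over 1.5 times smaller. It went from 0.65 to 0.41 for Klf4, 0.65 to 0.41 for Cyp4b1, 0.63 to 0.39 for Bmp6, 0.59 to 0.35 for Col4a2, 0.59 to 0.35 for Plpp1 and 0.65 to 0.41 for Ptgs1, and from 0.56 to 0.32 for Col4a1. The smallest pair difference was 0.49 for Ptgs1, the last gene inside the 15, and 0.48 for Cdh5, the first outside.

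**Figure D3:**
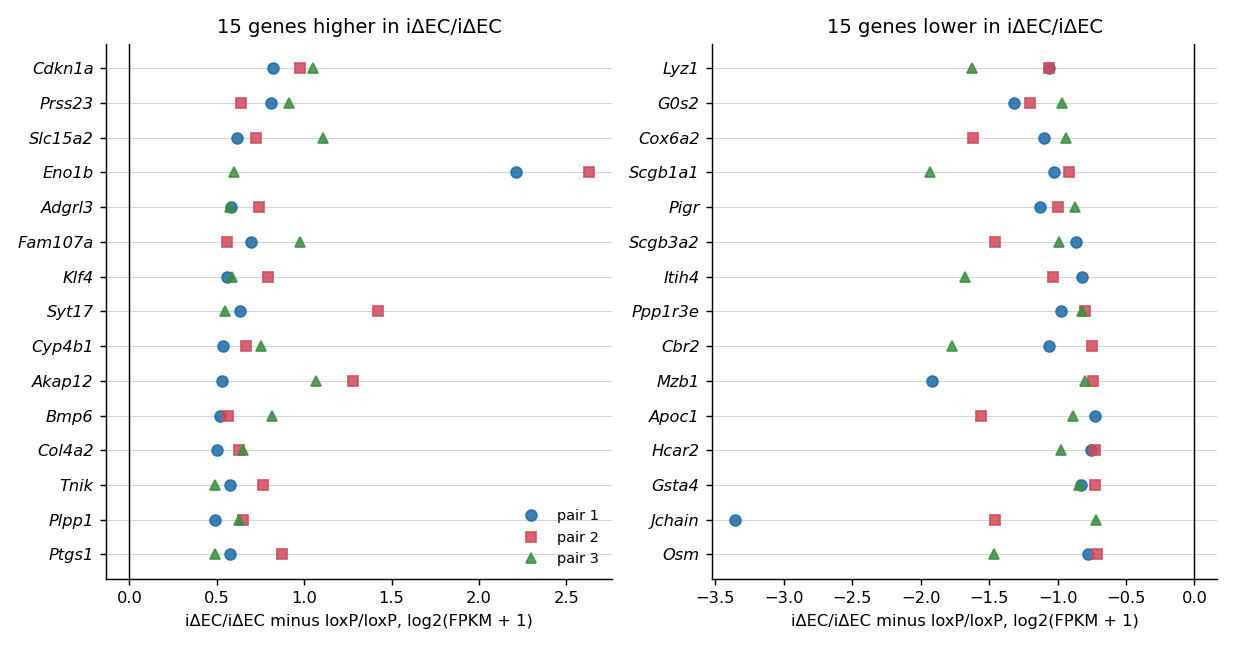
Difference in each pair, Fgfr1 iΔEC/iΔEC minus loxP/loxP on the log2(FPKM + 1) scale, for the 15 genes higher (left) and the 15 genes lower (right) in all 3 pairs by the largest smallest difference. Smallest differences reached 0.82 for Cdkn1a and -1.06 for Lyz1, and pairs spread most for Eno1b and Jchain.

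The 15 genes named as lower, chosen by the same rule, included genes known from airway secretory cells, myeloid cells and plasma cells. Scgb1a1, the secretoglobin of club cells, was at 177, 413 and 1310.0 FPKM in loxP/loxP libraries and 86.4, 218 and 343 FPKM in Fgfr1 iΔEC/iΔEC libraries. It varied more between replicates than between genotypes, with the replicate 3 control far above the rest. Pigr, the epithelial receptor that carries polymeric immunoglobulin into the airway, was at 5.99, 9.24 and 11.2 FPKM and 2.20, 4.13 and 5.70 FPKM. Its groups did not overlap, and its adjusted p of 0.306 was the smallest in the comparison, shared by 16 genes. G0s2, an inhibitor of triglyceride lipase, was another of the 16, at 51.5, 103 and 83.3 FPKM and 20.1, 44.3 and 42.2 FPKM, also with no overlap. Scgb3a2, another secretoglobin, Cbr2, a carbonyl reductase of club cells, and the glutathione transferase Gsta4 had mean differences of -1.10, -1.19 and -0.80. The 8 of 12 epithelial markers that were lower include Scgb1a1, so that count is not separate from these genes.

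Jchain and Mzb1, both known from plasma cells, spread most between pairs among these 15. They were the only 2 of the 6 B and plasma cell markers lower in all 3 pairs, and the median of that list was 0.14 in pair 2. Jchain, which joins polymeric immunoglobulins, was at 53.4, 33.8 and 16.8 FPKM in controls and 4.32, 11.7 and 9.87 FPKM in Fgfr1 iΔEC/iΔEC, with pair differences of -3.36, -1.46 and -0.72. Mzb1, an endoplasmic reticulum protein that assists antibody secretion, was at 21.3, 17.8 and 8.76 FPKM and 4.90, 10.2 and 4.62 FPKM. Pair 1 held the largest difference in both. Osm, the leukocyte cytokine oncostatin M, was at 24.9, 46.1 and 87.8 FPKM and 14.1, 27.7 and 31.2 FPKM, and Hcar2, the niacin receptor of myeloid and fat cells, at 36.2, 46.5 and 126 FPKM and 21.0, 27.7 and 64.1 FPKM. Their groups overlapped. Lyz1, the lysozyme gene of epithelium that closely resembles Lyz2 and may share reads with it, was at 14.2, 28.7 and 40.7 FPKM and 6.25, 13.2 and 12.6 FPKM. The cytochrome oxidase subunit Cox6a2, the plasma protein Itih4, the glycogen-targeting phosphatase subunit Ppp1r3e and the apolipoprotein Apoc1 completed the 15, with mean differences of -1.22, -1.18, -0.87 and -1.06. Some of these values rest on few reads. Fgfr1 iΔEC/iΔEC libraries 1 to 3 held 4, 4 and 12 reads of Cox6a2, 2, 7 and 16 of Scgb3a2 and 1, 26 and 10 of Apoc1. Adjusted p over the 15 genes ran from 0.306 to 0.593, and 8 of them had groups that did not overlap. Of all genes 10.1% had such groups, and choosing the 15 by their pair differences favors them. The smallest pair difference was -0.71 for Osm, the last inside the 15, and -0.70 for Fgfr1 itself, the first outside.

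Among the protein-coding genes of at least 1 FPKM from which names were taken, the 10 with the smallest unadjusted p comprised 9 lower and 1 higher gene. Of these 10 only G0s2 and Pigr were among the 16 genes with the smallest adjusted p over all genes tested, so the split is not that of the smallest p overall. Besides Cdkn1a and the 5 already named among the lower (G0s2, Pigr, Lyz1, Gsta4 and Hcar2) they were Dbp, Tpm2, Gadd45a and Aqp5. Dbp, a transcription factor of the circadian output, was at 7.86, 6.69 and 12 FPKM in controls and 4.30, 3.07 and 7.21 FPKM in Fgfr1 iΔEC/iΔEC, a difference of -0.74, -0.92 and -0.67 by pair. Gadd45a, a growth arrest gene, was at 8.20, 14.1 and 14.2 FPKM and 4.51, 9.05 and 8.61 FPKM. Tpm2, a muscle tropomyosin, and Aqp5, the water channel of alveolar type I cells, had mean differences of -0.72 and -0.67. All 4 were lower in each pair while the groups overlapped, and adjusted p ran from 0.411 to 0.414.

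Of the 4 FGF receptor genes tested only Fgfr1 was lower in all 3 pairs, and none was higher. In these libraries Fgfr3 was the most abundant of the FGF receptor genes tested. Its level was 27.6, 25.8 and 36.0 FPKM in controls and 39.9, 24.9 and 44.0 FPKM in Fgfr1 iΔEC/iΔEC, with pair differences of 0.52, -0.048 and 0.28. Fgfr2 (-0.18, 0.40 and -0.28) and Fgfrl1 (-0.13, 0.041 and 0.36), the receptor without a kinase domain, also ran in both directions, and Fgfr4 stayed under 0.5 FPKM. Of 11 ligand genes 4 were tested, and none moved one way in all pairs (endothelial-scaled 0 higher and 2 lower). Among 19 adaptor and ERK cascade genes 4 were higher and 2 lower in all 3 pairs (endothelial-scaled 0 higher and 5 lower). The higher ones included Sos2 and Sos1, exchange factors for RAS, and Ptpn11, the phosphatase SHP2, with mean differences of 0.24, 0.18 and 0.24, none of which was higher in all pairs when endothelial-scaled. Of 16 feedback and target genes of ERK 3 were higher and 2 lower in all 3 pairs (endothelial-scaled 1 higher and 6 lower). Spry4, a Sprouty inhibitor, was at 22.3, 19.4 and 32.3 FPKM and 29.1, 39.9 and 44.3 FPKM, higher in each pair. Dusp5, an ERK phosphatase, was at 11.6, 18.2 and 12.1 FPKM and 5.90, 14.8 and 8 FPKM, lower in each pair. Il17rd, an inhibitor of FGF signaling, and the transcription factor Etv5 had mean differences of 0.33 and -0.33. The PI3K and AKT list had 4 higher and 3 lower of 19 (endothelial-scaled 0 higher and 7 lower). With all 3 pairs, the shares of the adaptor, ERK target and PI3K lists stood near those of all genes. They depended on the pairs taken. Without pairs 1, 2 and 3 in turn, 26.4%, 30.7% and 30.0% of all genes were higher. The adaptor and ERK cascade list then had 31.6%, 42.1% and 36.8% higher. ERK feedback and target genes had 50%, 37.5% and 25%, and the PI3K and AKT list 26.3%, 31.6% and 47.4%.

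Of 17 genes for ROCK and its substrates 7 were higher and 1 lower in all 3 pairs (41.2% and 5.88%, against 17.8% and 12.9% of all genes), a count that became 1 higher and 6 lower when endothelial-scaled. Besides Rock2, Myh9, the heavy chain of nonmuscle myosin IIA, was at 97.8, 92.0 and 95.2 FPKM and 115, 126 and 119.9 FPKM with no overlap. Myl12a, a myosin light chain, and moesin (Msn), which ties actin to the membrane, had mean differences of 0.21 and 0.19. Rock1 was at 14.8, 12.8 and 17.4 FPKM and 16.2, 16.9 and 16.3 FPKM and did not move one way (0.13, 0.38 and -0.095).

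Heterotrimeric G protein subunits had 4 of 20 higher and none lower (endothelial-scaled 0 higher and 6 lower). The higher ones made up 20%, near the 17.8% of all genes. Among them was Gna13 (23.7, 23.8 and 24.0 FPKM in controls, 32.0, 26.7 and 26.7 FPKM in Fgfr1 iΔEC/iΔEC), whose groups did not overlap. The share of higher subunits depended on the setting. It was 35% against 19.0% of all genes with quantile normalization, and 60% against 30.7% without pair 2.

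**Figure D4:**
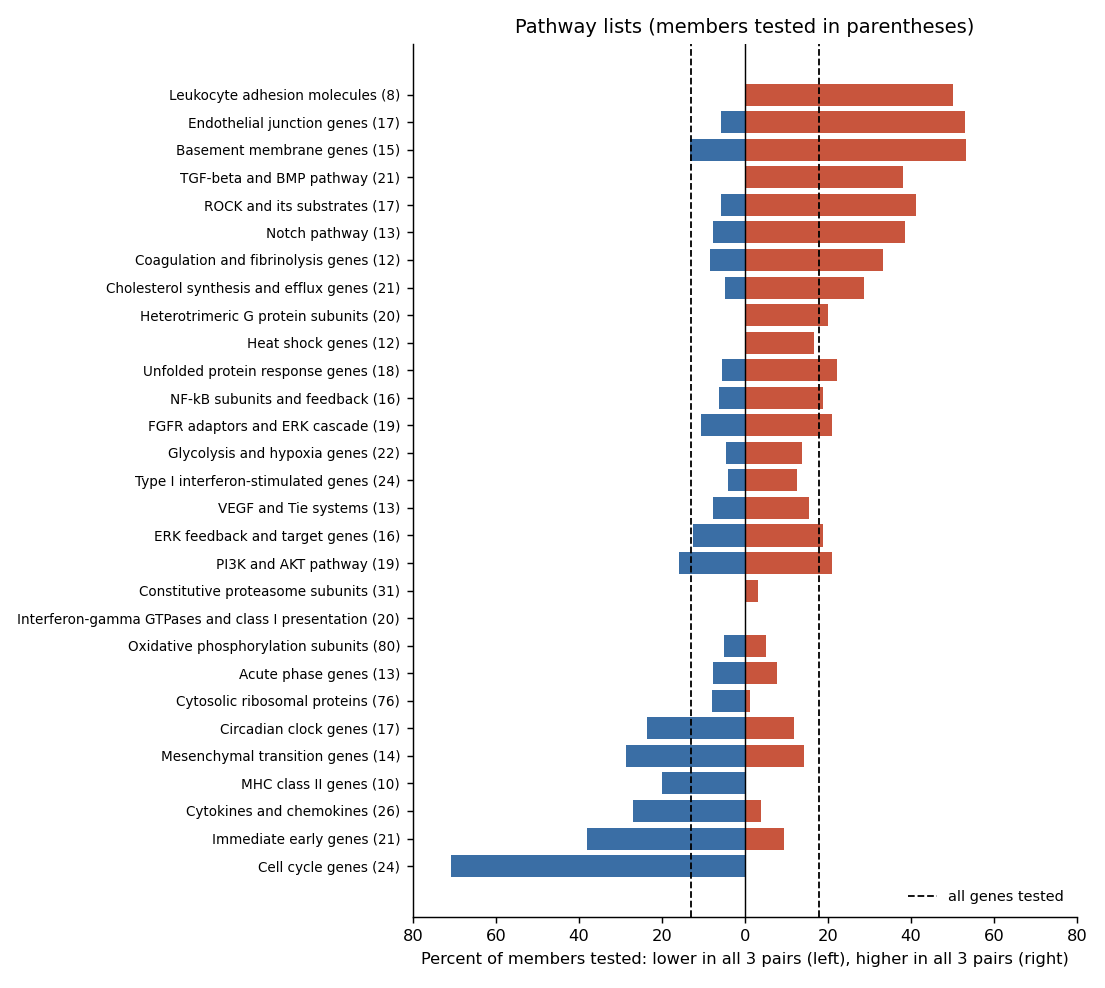
Percent of the members of each pathway list shown (at least 8 genes tested) that were higher (right) or lower (left) in Fgfr1 iΔEC/iΔEC in all 3 pairs, beside the shares of all genes (dashed lines, 17.8% and 12.9%). Cell cycle genes stood farthest to the left (70.8% lower) and basement membrane, junction and leukocyte adhesion genes farthest to the right, where scaling on the endothelial markers left 4, 2 and 2 higher genes.

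Of 17 junction genes 9 were higher and 1 lower in all 3 pairs (52.9% and 5.88%, against 17.8% and 12.9% of all genes), with a median of 0.21, or 2 higher and 4 lower and a median of -0.026 when endothelial-scaled. Cdh5, which encodes VE-cadherin, was at 434, 306 and 414 FPKM in loxP/loxP libraries and 618, 438 and 581 FPKM in Fgfr1 iΔEC/iΔEC libraries, 1.42, 1.43 and 1.4 times the paired control. Cldn5, the main claudin of endothelium, was at 1039, 876 and 789.7 FPKM and 1329, 989.6 and 1191 FPKM. The adhesion molecule Esam had a mean difference of 0.31, and Cgn, an epithelial tight junction protein, was the 1 lower gene (-0.30). Cdh5 and Cldn5 also belong to the endothelial marker list, so they are not separate from it, and scaling on that list took their mean differences from 0.50 to 0.26 and from 0.37 to 0.13. Of 15 basement membrane genes 8 were higher and 2 lower in all 3 pairs (53.3% and 13.3%, median 0.22), or 4 higher and 6 lower with a median of -0.015 when endothelial-scaled. Nid1 (nidogen) was at 39.6, 28.6 and 30.4 FPKM and 53.1, 40.6 and 44.3 FPKM, with a mean difference of 0.48 (0.24 when endothelial-scaled), and Lamc1, a laminin chain, differed by 0.46. With the collagen IV chains these 4 had no overlap between groups.

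The TGF-beta and BMP list had 8 of 21 genes higher and none lower (median 0.13), or 3 higher and 3 lower with a median of -0.085 when endothelial-scaled. Its leading members were Bmp6, Tgfb2 (0.55) and the endothelial receptors Acvrl1 and Eng. Acvrl1 (ALK1) was at 299, 205 and 304 FPKM in controls and 408, 259 and 472 FPKM in Fgfr1 iΔEC/iΔEC. Endoglin (Eng) was at 399, 338 and 293 FPKM and 522, 369.7 and 532 FPKM. Each was higher in every pair while the groups overlapped. Notch genes had 5 of 13 higher and 1 lower (endothelial-scaled 2 higher and 4 lower). The ligand Dll1 was at 40.1, 36.7 and 37.8 FPKM and 53.1, 43.4 and 66.1 FPKM, and Hey2, an arterial target gene, had a mean difference of -0.41. The VEGF and Tie list had 2 of 13 higher, the receptors Flt4 (0.39) and Kdr (0.35), and 1 lower, Nrp2 (-0.18), or 1 higher and 4 lower when endothelial-scaled. These shares (15.4% and 7.69%) were below the 17.8% and 12.9% of all genes. The share of higher genes depended on the setting. It was 30.8% against 19.0% of all genes with quantile normalization, and 53.8% against 30.7% without pair 2. In the mesenchymal transition list 2 of 14 were higher and 4 lower (endothelial-scaled 0 higher and 7 lower), the lower ones being Cnn1 (-0.70), Acta2 (-0.58), Col3a1 (-0.33) and Vim (-0.30). Cnn1 and Acta2 are contractile genes of smooth muscle and stand also in the mural marker list, of which 4 of 8 genes were lower, and Col3a1 stands in the fibroblast list.

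Of 8 leukocyte adhesion molecules 4 were higher and none lower in all 3 pairs (50% higher against 17.8% of all genes, endothelial-scaled 2 higher and 0 lower). Sele, the E-selectin on activated endothelium, was at 44.5, 49.9 and 17.1 FPKM in controls and 54.4, 72.8 and 84.5 FPKM in Fgfr1 iΔEC/iΔEC. Icam1, the ligand of leukocyte integrins, was at 266, 204 and 129.6 FPKM and 335, 364 and 382 FPKM, and Selp, the P-selectin, at 41.8, 42.7 and 15.2 FPKM and 42.8, 52.7 and 48.9 FPKM. The groups did not overlap for any of the 3, yet the replicate 3 control was far below the other controls, and pair 3 held the largest difference. Without pair 3 the median of the list was 0.099, against 0.29 with it. Podxl, a sialomucin, differed by 0.38, whereas Vcam1 ran in both directions (-0.21, -0.48 and 0.56).

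Of 26 cytokines and chemokines 1 was higher (Csf1, 0.35) and 7 were lower in all pairs (26.9% against 12.9%), with a median of -0.20 (-0.60, -0.22 and -0.14 by pair, endothelial-scaled 0 higher and 12 lower). Il1b was at 295, 528 and 579 FPKM in controls and 176, 337 and 311 FPKM in Fgfr1 iΔEC/iΔEC. Ccl4, a chemokine of myeloid cells, was at 93.5, 123 and 211 FPKM and 48.4, 67.8 and 137 FPKM. Ccl3 (-0.70) and Il1rn (-0.65), the antagonist of the interleukin-1 receptor, were lower too, as were Il1a, Tnf and Ccl22. Neutrophils and macrophages express most of these genes. In the same pairs 5 of 8 neutrophil markers were lower (3 under quantile normalization). Of 8 monocyte and macrophage markers 1 was lower, and their medians ran in both directions (-0.38, 0.30 and -0.31). The part of these cells in the result was not tested. Il6 (-0.54, 0.47 and 0.34), Cxcl1 (-0.21, 0.32 and 0.90) and Ccl2 (-0.83, 0.32 and 0.78) did not move one way.

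Immediate early genes had 2 of 21 higher and 8 lower (9.52% and 38.1%, against 17.8% and 12.9% of all genes), or 2 higher and 12 lower when endothelial-scaled (57.1% lower against 42.3%). Fosb was at 9.04, 21.1 and 20.8 FPKM in controls and 6.91, 8.09 and 8.79 FPKM in Fgfr1 iΔEC/iΔEC, with no overlap. Fos was at 112, 213 and 227 FPKM and 70.0, 167 and 129 FPKM, lower in each pair. Egr3 (-0.64) and Nr4a1 (-0.53) went the same way, and Klf4 and Atf3 (0.41) the other. Clock genes had 2 of 17 higher (Arntl, 0.30, and Clock, 0.20) and 4 lower (11.8% and 23.5%, against 17.8% and 12.9% of all genes), or 1 higher and 7 lower when endothelial-scaled (41.2% lower against 42.3%). Besides Dbp the lower ones were Nr1d1 (-0.45), Hlf (-0.27) and Tef (-0.14).

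Among the pathway lists with at least 8 genes tested, the cell cycle list had the largest share of genes on one side. Of 24 genes tested none was higher and 17 were lower in all 3 pairs (70.8% against 12.9% of all genes), with a median of -0.27 that was alike in the pairs (-0.22, -0.23 and -0.21), and 22 were lower when endothelial-scaled. None was called (0 of 24). Levels were low. Top2a, the topoisomerase of dividing cells, was at 1.28, 1.84 and 1.98 FPKM in controls and 0.795, 0.968 and 1.23 FPKM in Fgfr1 iΔEC/iΔEC, with no overlap. Rrm2, a subunit of ribonucleotide reductase, was at 1.29, 2.02 and 2.98 FPKM and 0.899, 1.49 and 1.38 FPKM. Ccna2 (cyclin A2) and Mki67, the gene of the Ki-67 antigen, had mean differences of -0.33 and -0.32. Cdk1 was at 0.870, 0.926 and 0.737 FPKM and 0.295, 0.466 and 0.710 FPKM. The licensing genes Mcm2, Mcm4, Mcm5 and Mcm7, at higher levels, had mean differences of -0.29, -0.27, -0.27 and -0.27. All 24 genes are also used by dividing leukocytes and epithelial cells, and 8 of 12 epithelial, 5 of 8 neutrophil, 4 of 6 T and NK cell and 1 of 6 common leukocyte markers were lower in the same pairs. The part of these cells in the result was not tested. Cdkn1a, named above for its higher level, is not a member of the list.

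**Figure D5:**
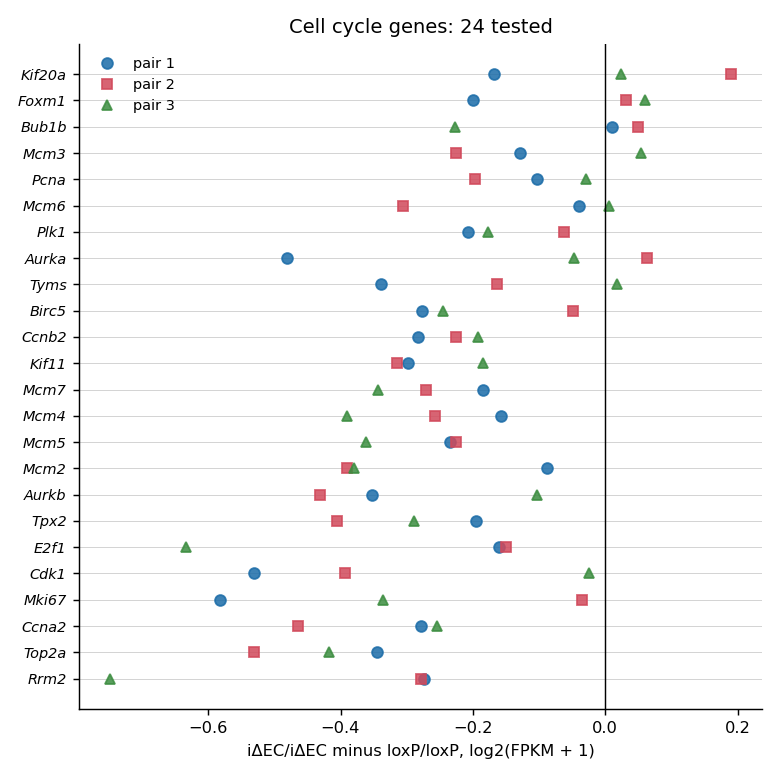
Difference in each pair, Fgfr1 iΔEC/iΔEC minus loxP/loxP on the log2(FPKM + 1) scale, for the 24 cell cycle genes tested, ordered by their mean. Of these, 17 lay below 0 in all 3 pairs and none above (22 below when endothelial-scaled).

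Promoters of 3 lower cell cycle genes are shown as examples of the minority of the list that held both of 2 motifs known from cell cycle promoters. The motifs searched on both strands were CCAAT, bound by the factor NF-Y, and TTTGAA, the core of the cell cycle homology region. They overlapped by 1 base in 18 of 32851 windows. In the 250 bases before the start, CCAAT was found for 11 and TTTGAA for 6 of the 13 lower cell cycle genes with a RefSeq entry (of 17), or 85.7% and 42.9% of their 14 windows. Over all cell cycle genes tested, 84.2% and 31.6% of 19 windows held them, and all 6 windows with TTTGAA were of lower genes. The difference between lower and other members was not tested. Of all 32851 RefSeq windows of this length 33.9% held CCAAT and 16% TTTGAA. These are matches of letters and say nothing of binding in these cells. The windows lie at chr11:99024190-99024439, chr7:135716380-135716629 and chr10:69352913-69353162 (GRCm38.p6, all minus strand). They are written 5′ to 3′ on the strand of the gene, with both motifs in capitals (ATTGG and TTCAAA are their reverse complements).
Top2a: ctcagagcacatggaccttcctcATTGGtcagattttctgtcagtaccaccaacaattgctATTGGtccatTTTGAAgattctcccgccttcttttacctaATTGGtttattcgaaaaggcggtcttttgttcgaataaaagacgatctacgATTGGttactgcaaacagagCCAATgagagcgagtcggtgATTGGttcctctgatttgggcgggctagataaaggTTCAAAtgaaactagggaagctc
Mki67: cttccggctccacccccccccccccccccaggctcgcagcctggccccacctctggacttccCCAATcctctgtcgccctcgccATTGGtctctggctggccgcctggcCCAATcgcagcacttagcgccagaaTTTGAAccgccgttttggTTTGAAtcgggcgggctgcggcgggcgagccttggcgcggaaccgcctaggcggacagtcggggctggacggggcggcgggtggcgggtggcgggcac
Cdk1: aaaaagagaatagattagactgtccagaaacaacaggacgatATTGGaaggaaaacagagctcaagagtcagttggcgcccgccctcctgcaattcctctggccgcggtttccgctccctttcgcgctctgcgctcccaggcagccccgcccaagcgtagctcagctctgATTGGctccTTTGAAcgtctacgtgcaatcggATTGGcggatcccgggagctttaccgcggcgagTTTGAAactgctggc
Top2a holds 6 CCAAT and 2 TTTGAA matches, Mki67 3 and 2, and Cdk1 3 and 2.

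Other lists ran in different directions in the pairs. None of 20 interferon-gamma GTPase and class I presentation genes moved one way in all pairs, and their medians were 0.55, -0.73 and 0.69 in pairs 1 to 3. Gbp2, a guanylate-binding protein, was at 217, 93.3 and 34.4 FPKM in controls and 346, 53.5 and 63.0 FPKM in Fgfr1 iΔEC/iΔEC, so the spread between replicates exceeded the difference between groups. Type I interferon genes had 3 of 24 higher and 1 lower (0.30, -0.26 and 0.36 by pair). Cytosolic ribosomal proteins had 1 of 76 higher and 6 lower (-0.26, -0.33 and 0.22), the nuclear subunits of oxidative phosphorylation 4 of 80 higher and 4 lower (-0.032, -0.19 and 0.26) and proteasome subunits 1 of 31 higher and none lower (-0.031, -0.13 and 0.37). In the latter lists pair 3 was above 0 and pair 2 below. Without pair 3, ribosomal proteins were 1 higher and 67 lower in both remaining pairs, oxidative phosphorylation subunits 5 higher and 42 lower and proteasome subunits 1 higher and 16 lower, against 30% and 27.5% of all genes. Without pair 2 the same lists were 2 higher and 7 lower, 30 higher and 4 lower and 13 higher and 0 lower, interferon-gamma genes 19 higher and 0 lower of 20 and type I interferon genes 22 higher and 1 lower of 24, against 30.7% and 25.6% of all genes, so the direction of these lists depended on which pairs were taken. When endothelial-scaled, with all 3 pairs, the ribosomal, oxidative phosphorylation and proteasome lists were 0 higher and 63 lower, 0 higher and 53 lower and 0 higher and 13 lower, and type I interferon genes 0 higher and 2 lower.

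Cholesterol genes had 6 of 21 higher and 1 lower (endothelial-scaled 0 higher and 4 lower). Sqle, an oxygenase of sterol synthesis, was at 5.65, 5.91 and 5.41 FPKM in controls and 6.02, 7.91 and 7.10 FPKM in Fgfr1 iΔEC/iΔEC, with no overlap. The exporter Abca1 was the lower gene (-0.22). Coagulation and fibrinolysis genes had 4 of 12 higher and 1 lower (endothelial-scaled 1 higher and 2 lower), with the protease inhibitor Serpine2 (7.68, 7.83 and 3.84 FPKM and 9.32, 11.9 and 8.16 FPKM) and the activator Plat (0.40) higher and the urokinase gene Plau (-0.31) lower. Higher and lower genes numbered 3 and 1 of 16 in the NF-kB list, 1 and 1 of 13 in the acute phase list, 0 and 2 of 10 in the MHC class II list, 4 and 1 of 18 in the unfolded protein response, 2 and 0 of 12 in the heat shock list and 3 and 1 of 22 in the glycolysis and hypoxia list, against 17.8% and 12.9% of all genes. When endothelial-scaled, none was higher in any of these lists, and 4, 4, 7, 10, 6 and 8 were lower in the same order. The last 2 lists depended on pair 3. Without it the heat shock list was 2 higher and 8 lower and the glycolysis and hypoxia list 3 and 12, against 30% and 27.5% of all genes. Without pair 1 they were 3 and 0 and 5 and 1, and without pair 2, 3 and 0 and 4 and 5.

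The genes that respond to LPS were followed as a further pair of lists, taken from the wild-type libraries, which none of the 6 libraries entered. Of 1749 genes higher in LPS than in saline and tested here, 139 (7.95%) were higher and 279 (16%) lower in Fgfr1 iΔEC/iΔEC in all 3 pairs, against 17.8% and 12.9% of all genes, and the median was -0.073 (-0.21, 0.037 and -0.035 by pair). Of 947 genes lower in LPS, 168 (17.7%) were higher and 154 (16.3%) lower, with a median near 0 (0.0022). The excess of lower genes in the first list depended on pair 1. Without that pair the list was 357 higher and 317 lower (20.4% and 18.1%), with a median of -0.010. Both shares were then below those of all genes. Without pair 2 the first list was 262 higher and 808 lower, and without pair 3, 208 and 632. After endothelial scaling, with all 3 pairs, the counts were 33 higher and 735 lower for the first list and 21 and 354 for the second. The LPS dose of the lists was 10 mg/kg, that of the pairs 2 mg/kg.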

How the data were processed

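Reads had been aligned by the authors to GRCm38/mm10 with HISAT2 2.0.5 and counted per gene with featureCounts 1.5.0-p3, per the labels and the methods. The annotation release was not given in the sources used here. The authors deposited FPKM values, 1 column per library. Gene symbols were taken from the wild-type table by gene ID, since 11 symbols of the second table had turned into dates, and of IDs that share a symbol the most abundant was used. Read numbers were FPKM multiplied by gene length and by a library size for each library. They were whole for 100% of the low values (up to 1000 reads, within 0.05). The deposited values had already been scaled by library size. A further median-ratio scaling moved each library by under 1%.

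Genes that averaged 0.5 FPKM or more were fitted with limma 3.58.1 (lmFit, eBayes with trend, R 4.3.3) on log2(FPKM + 1), which understates the change of low genes, with genotype and the replicate number as a block. P-values were adjusted by Benjamini-Hochberg over all 14944 genes and called at 0.05. The fit was tested on simulated data. The pairing was set beforehand by equal replicate numbers. Same-numbered libraries deviated together from their group means across genes (r = 0.25, 0.18 and 0.19 for pairs 1 to 3, -0.14 to -0.041 for the others). Deviations from a group mean cancel within the group, so positive values for equal numbers bring negative ones elsewhere, and the contrast does not test the pairing. The labels do not say what a number marks, and nothing says that libraries came from separate animals, so p-values measure the spread between these libraries. Lists were described by counts and medians only. A list count has no test. Named genes were Fgfr1 and its family, Rock1 and Rock2, the 15 higher and 15 lower protein-coding genes of at least 1 FPKM with the largest smallest pair difference, the 10 with the smallest p, and up to 4 leading members of each list, and others given beside them (Vcam1, Il6, Cxcl1, Ccl2, Gbp2, Eno1 and members named in passing) were chosen after their values were seen. Members, lists and tests were chosen with earlier results of these data known. Alternatives were no block, a pseudocount of 0.1, a minimum of 1 FPKM, no filter, no further scaling, quantile normalization, scaling on the endothelial markers, limma-voom on the read numbers, a log2 difference of at least 1, and leaving out each replicate. DESeq2, which the authors used, was not run on these FPKM values. Sequences came from RefSeq (GRCm38.p6). Some genes and lists are not reported here.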

Additional observations from a re-analysis of the deposited data

How the results depend on the processing

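No gene was called under any of the alternative settings, with a smallest adjusted p between 0.183 (scaled on the endothelial markers) and 0.805 (no filter). Without the replicate block, that is with the paired libraries treated as unpaired, limma also called 0 genes (smallest adjusted p 0.742, 661 genes with an unadjusted p under 0.05), and 899 genes were higher and 610 lower with no overlap of the groups, 6 and 24 of them by at least 0.5. With a pseudocount of 0.1 the mean difference moved over 1.5 times for Fgfr1 (-1.35), Cox6a2 (-2.13), Scgb3a2 (-2.07), Apoc1 (-1.87) and Ppp1r3e (-1.39). Of the counts by pair, a pseudocount of 0.1 gave 67 higher and 228 lower by at least 0.5, limma-voom on read numbers 76 and 241, and no filter 3208 lower in all pairs. Scaling on the endothelial markers gave 347 higher and 6322 lower, 10 and 196 by at least 0.5. With 1 pair left out, 2 pairs had to move one way, and the counts were 3942 to 4594 higher and 3065 to 4116 lower, 109 to 177 and 222 to 441 by at least 0.5. Fgfr1 kept its direction under all 11 settings (-1.39 to -0.72), as did Rock2 (0.15, scaled on the endothelial markers, to 0.43) and the 30 named genes, of which 6 became over 1.5 times smaller when scaled on the endothelial markers. All of these genes moved one way in each pair, and the 30 were chosen for it. Leaving out a pair or changing the block, the pseudocount or the filter could therefore not reverse them. Of 473 recomputed medians of lists with at least 8 members, 41 moved by more than the spread between pairs, 28 of them under the endothelial scaling. Counting error limits low genes: the Fgfr1 values rest on 111 to 487 reads, those of Cox6a2 and Apoc1 on as few as 4 and 1 and those of Cdk1 on 24 to 75.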

Other observations

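Genes encoded in the mitochondrial genome, a list made after their values were seen, were lower in all 3 pairs in 11 of 13 cases and higher in none. Of all genes 12.9% were lower and 17.8% higher, against 84.6% and 0% of this list. Its medians were -0.41, -1.16 and -0.52 by pair. The most abundant, mt-Co1 (cytochrome c oxidase subunit 1), was at 8867, 15626 and 5645 FPKM in loxP/loxP libraries and 5845, 6071 and 4089.7 FPKM in Fgfr1 iΔEC/iΔEC libraries, with the replicate 2 control highest. mt-Nd4, a subunit of complex I, was at 1329.8, 2468 and 1072 FPKM and 1001, 989.9 and 651 FPKM. The 80 nuclear-encoded subunits of the same complexes were 4 higher and 4 lower under the scaling used throughout, but 0 higher and 53 lower when scaled on the endothelial markers, where the mitochondrial genes were 0 higher and 13 lower and 42.3% of all genes were lower. Nuclear copies of mitochondrial genes can share their reads, and RNA quality, which these files do not give, was not tested.

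Platelet genes, Pf4 (60.4, 124 and 79.9 FPKM in controls, 89.5, 148 and 92.9 FPKM in Fgfr1 iΔEC/iΔEC), Gp9 and Itga2b, were higher in all 3 pairs before endothelial scaling, while Ppbp (24.1, 32.0 and 84.6 FPKM and 47.0, 33.0 and 35.9 FPKM) was lower in pair 3 and 1 further platelet marker was listed at 0 in all libraries. The summed level of the list was 112, 199.7 and 200.2 FPKM in controls and 184, 232 and 171 FPKM in Fgfr1 iΔEC/iΔEC, lower in pair 3. Among general capillary markers the receptor gene Aplnr was the exception, at 8.27, 4.35 and 9.99 FPKM and 6.26, 2.98 and 5.13 FPKM, lower in every pair, while Glp1r (19.1, 8.56 and 32.3 FPKM and 40.8, 14.2 and 40.4 FPKM) and Lpl (194, 139.8 and 84.3 FPKM and 234, 232 and 156 FPKM), lipoprotein lipase, were higher. Lyve1, a lymphatic marker that some macrophages also express, was at 805, 671 and 438 FPKM and 968, 1057 and 704 FPKM, higher in every pair.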
